A study of Homo sapiens with 9 samples.

Results

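A custom array that carries oligonucleotide probes for long non-coding RNAs (lncRNAs) beside catalogue probes for coding genes was used to measure RNA after knockdown of *PHF6* in ALL-SIL cells. Of its 23042 custom probes, 9636 list Ensembl transcript identifiers and no identifier of an assembled transcript (those that begin with TCONS). The 4119 of these probes that were well above background on at least 3 of 9 arrays are described here. They were 42.7% of the 9636 designed probes and a part of the 33595 probes of all kinds that passed the same filter. Each member was 1 spot per array. In all, 4075 members list 1 transcript, 44 list more than 1, and no listed transcript had 2 probes of this kind. The table of gene names used here paired none of the 4119 members with a symbol, so the members are given by probe and transcript identifier, without genome positions. In the array files analysed here each probe is listed by identifier, and no probe sequence was used.

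ALL-SIL is an established cell line of T cell acute lymphoblastic leukaemia (T-ALL). Electroporation delivered either a control siRNA or one of 2 reagents against *PHF6*, named siRNA1 and siRNA2 in the labels. Each of the 3 groups had 3 samples, numbered 1 to 3, which the series describes as independent biological replicates. Every sample was hybridised to its own one-colour array. Cells were collected at 96 h according to most labels, or at 72 h according to a free-text description. One *PHF6* reagent was a single Silencer Select siRNA and the other an ON-TARGETplus pool of siRNAs, and which of them is siRNA1 is not stated in the sources used here. All 9 arrays come from 1 cell line, and no untreated cells were analysed here, so that electroporation is common to all groups.

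lncRNAs are transcripts without a long open reading frame that are mostly made by RNA polymerase II and are often spliced and polyadenylated. Many are present at lower levels and in fewer cell types than mRNAs. Well-studied ones act in the nucleus on chromatin and transcription or in the cytoplasm on RNA stability and translation, while for most no function is known. PHF6 is a nuclear protein with zinc fingers of the PHD type that binds chromatin, and its gene is often lost or mutated in T-ALL.

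The target of the siRNAs was lower in every treated sample. The *PHF6* probe (A_23_P171385) had normalized log2 values of 11.07, 11.17 and 10.86 on the control arrays 1 to 3. The values were 9.39, 9.69 and 9.12 with siRNA1, and 9.20, 9.28 and 9.14 with siRNA2. The groups did not overlap, and the log2 fold change of both siRNAs against control was -1.73 ± 0.09 (SE; limma with the replicate number as a block, adjusted p = 8.29e-05). The markers looked up for the T-ALL line (*CD3D*, *CD3E*, *CD3G*, *CD7*, *CD5*, *CD2*, *CD1A*, *CD1B*, *LCK*, *PTCRA*, *TCF7*, *BCL11B* and *TLX1*) were above background on all 9 arrays for 13 of 13 genes. Of 18 measured markers of other cell types, 9 were above background on all 9 arrays, *CD79A* and *VIM* among them, and 5 on none. No spot was saturated, and the median intensity of an array was 43.5 to 58 against 23 to 27.5 for its negative control spots. The control arrays were always in column 1 of a slide, the siRNA1 arrays in column 3 and the siRNA2 arrays in column 4, so that slide column and group cannot be told apart. Replicates 1 and 2 were on the first slide, in rows 1 and 2, and replicate 3 was in row 2 of the second. Replicate number and position by slide and row thus cannot be told apart.

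Fewer of the Ensembl-only lncRNA probes than of the catalogue and other non-custom probes gave a signal. At least 3 of 9 arrays were above background for 42.7% of the Ensembl-only probes, compared with 40.1% of 10565 custom probes for assembled transcripts only, 30.1% of 2789 custom probes in both annotations and 71.4% of 34134 other probes. The designed Ensembl-only probes were mostly detected throughout or nowhere. On all 9 arrays 2865 (29.7%) were above background, on none 4317 (44.8%), and each number of arrays from 3 to 8 was reached by 191 to 264 probes. A single array was reached by 868 probes. Detection depends on the oligo as well as on its transcript, so these shares are not shares of lncRNAs expressed in ALL-SIL cells.

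At the edge of the filter the signals were close to background. The 210 probes detected on exactly 3 arrays had a median intensity of 37.9 (quartiles 36.9 and 39.0), and the 332 probes on exactly 2 arrays, which are not members, had 36.6 (quartiles 35.4 and 37.6). The probes detected on all 9 arrays had a median of 117 (quartiles 67.3 and 329) and those on none a median of 29.3. Thus the probes on either side of the threshold differed little in brightness.

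The detection rate did not separate the treatments. On the control arrays 1 to 3, 39.0%, 35.4% and 40.6% of the 9636 designed probes were above background, a mean of 38.4% ± 2.69 (SD, n = 3). With siRNA1 the shares were 40.8%, 34.4% and 43.0%, a mean of 39.4% ± 4.46 (SD, n = 3). With siRNA2 they were 40.8%, 43.5% and 39.0%, a mean of 41.1% ± 2.27 (SD, n = 3). The groups overlapped, the lowest share was that of siRNA1 replicate 2 and the highest that of siRNA2 replicate 2. Of the 34134 other probes 66.5% to 69.9% were above background with control siRNA, 65.6% to 71.5% with siRNA1 and 69.2% to 71.5% with siRNA2, where the groups overlapped as well.

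Hardly any Ensembl-only lncRNA probe was switched on or off by group. No probe was above background on all 3 control arrays and on no siRNA array. On all 3 siRNA1 arrays and on no other there were 6 probes (0.062% of 9636), of which the highest intensity on any array was 91. On all 3 siRNA2 arrays and on no other there were 3 (0.031%), with a highest intensity of 52.5. Of the 34134 other probes 4 (0.012%) were detected on the siRNA1 arrays only and 2 (0.0059%) on the siRNA2 arrays only. One probe was detected on all 6 siRNA arrays and on no control array. Its normalized log2 values were 4.60, 4.73 and 4.55 with control siRNA, 5.35, 5.40 and 4.96 with siRNA1, and 5.50, 4.77 and 5.02 with siRNA2. All 6 siRNA arrays were above all 3 control arrays, although siRNA2 replicate 2 was barely above control replicate 2. The control arrays were not well above background, and the probe passed the filter only through the siRNA arrays. The difference of the measured values did not pass the test (log2 fold change 0.54 ± 0.14 (SE), limma with the replicate block, adjusted p = 0.0708). This probe was singled out after its values were seen. Of the 34134 other probes, 7 (0.021%) were detected on the 6 siRNA arrays and on no control array, against 1 of 9636 (0.010%) here.

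Most members were dim. The mean intensity of a member over the 9 arrays had a median of 70.7 (quartiles 46.4 and 191), and 2514 members (61.0%) were under 100. A further group was bright: 332 members (8.06%) reached 1000 and 83 reached 10000, up to 134480. Intensities of different oligos depend on their sequence and are given here as a spread of signals, not as an order of transcript levels. On the normalized scale, a generalized log2 that flattens near background, the members lay between 4.45 and 16.99 with a median of 5.85. Fold changes of the dim members are therefore understated.

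Part of the spread between the samples of a group was shared by samples with the same number. The median standard deviation of a member within its group was 0.24 on the log2 scale, and 0.16 after the replicate number was taken out as a block. Over the other probes the same values were 0.21 and 0.13. The deviations of the members from their group means correlated at 0.33 to 0.72 for 9 pairs with a shared number from different groups, and at -0.58 to 0.23 for 18 pairs with unlike numbers. Deviations from a group mean cancel out within the group, so the negative values for unlike numbers are partly built in. These are correlations across probes of the same arrays, and probes are not independent replicates. The tests below hold the replicate number, by which the groups were paired, as a block, and the counts of called members are given without it as well.

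Against control siRNA, both *PHF6* siRNAs together changed a small share of the Ensembl-only lncRNA probes, and about 3 in 4 of these rose. This comparison sets the mean of both siRNA groups against control, so that a member can be called through a single siRNA. With an adjusted p under 0.05 over all 33595 tested probes (limma, Benjamini-Hochberg, replicate block), 133 of 4119 members (3.23%) were called, against a background of 2.74% of all tested probes. Of the called members 99 were higher (2.40% of the members; background 1.85%) and 34 were lower (0.825%; background 0.881%). The called share of the members was thus near that of the whole array. Custom probes for assembled transcripts only had 95 higher and 24 lower among 4232, those in both annotations 16 higher and 3 lower among 840, and the other probes 412 higher and 235 lower among 24379. No class was tested against another. Of the 133 called members, 115 were above background on all 9 arrays, 82 of them higher. The detection filter can be passed through the siRNA arrays alone, and its part in the excess of risers was not tested. With a filter on all 9 arrays 159 members were called higher and 65 lower, and with no filter 5 higher and 4 lower.

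The calls rested on the block and on single arrays. Without the replicate block no member was called by limma (background 0.00893%), although 359 members (8.72%; background 7.43%) had an unadjusted p under 0.05, 216 of them higher and 143 lower. Without control replicate 1 only 3 members were called, and without control replicate 2 only 8. Without siRNA1 replicate 1, 2 or 3 the count was 40, 28 or 50, and without siRNA2 replicate 1 it was 29. The excess of risers also moved with single arrays: without siRNA2 replicate 2 there were 61 higher and 55 lower among 116 calls, and without control replicate 3 there were 153 higher and 25 lower among 178. VSN on the processed signal called 33 members, 19 of them higher.

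The changes were small. The 99 members that rose had a median log2 fold change of 0.56 and a range of 0.35 to 0.94, which is 1.28-fold to 1.91-fold. The 34 that fell had a median of -0.56 and a range of -0.90 to -0.39, which is 1.31-fold to 1.87-fold lower. No called member reached a log2 change of 1, and 64 of the 99 and 25 of the 34 reached 0.5. Of the 133, 130 moved in the direction of the fit in 6 of 6 siRNA arrays when each was set against the control of the same number. Over all members this held for 884 of 4119 (21.5%; background 21.5% of all tested probes). The values of the siRNA and control arrays did not overlap for 44 of the 133, whereas over all members this held for 148 of 4119 (3.59%; background 3.91%). On the first slide the risers had a median difference of 0.59 and on the second slide 0.38. The fallers had -0.55 and -0.57, and all 133 were in the direction of the fit on each slide. The 133 were selected by this same fit, so these agreements follow in part from the selection and are no independent support.

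Over all members, called or not, the fold changes lay slightly above 0. The median log2 fold change was 0.042, compared with -0.00048 over all tested probes and -0.016 over the other probes, and 59.0% of members had a positive value. By replicate number the median of the members was 0.042, 0.084 and -0.00084, so that the shift was seen on the first slide and not on the second. The shift also depended on the scaling: with normexp background correction and quantile normalization the median of the members was -0.0013 and 49.4% were positive. Without the filter on detection the median over the 9636 designed probes was 0.016, and 53.9% were positive. For probes above background on all 9 arrays it was 0.036, with 57.1% positive. The filter let in 137 members with no control array above background, and 4 with every control array and at most 1 siRNA array. Its part in the shift was not tested. The custom probes for assembled transcripts only had a median of 0.048 and those in both annotations 0.043.

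The share of risers among the calls was larger for dim members than for bright ones. In 4 groups of nearly equal size, from the dimmest members to the brightest, 10, 20, 39 and 64 members were called. Of these 9, 19, 33 and 38 rose and 1, 1, 6 and 26 fell. The median log2 fold change over all members of a group was 0.050, 0.077, 0.037 and -0.0016. The other probes in the same ranges of level had medians of 0.055, 0.071, 0.044 and -0.052, with 25 of 31, 57 of 69, 139 of 180 and 191 of 366 calls higher. Risers outnumbered fallers in each range in both sets. Both sets passed the same detection filter, which a dim probe can pass through siRNA arrays alone. The parts of signal level and of the filter in the excess of risers were not tested.

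Under each siRNA alone fewer members passed the threshold. With siRNA1, 43 members (1.04%; background 0.947%) were called, 27 higher (background 0.521%) and 16 lower (background 0.426%). With siRNA2, 75 members (1.82%; background 1.64%) were called, 51 higher (background 1.06%) and 24 lower (background 0.58%). Both comparisons use the same 3 control arrays. Without the replicate block siRNA1 had no called member by limma (background 0.00893%), with 269 at an unadjusted p under 0.05 (6.53%; background 5.93%). siRNA2 had 1 (background 0.0119%), with 277 at an unadjusted p under 0.05 (6.72%; background 5.9%). The count for siRNA1 was 0 without siRNA1 replicate 2, 2 without control replicate 1 or control replicate 2, 3 without siRNA1 replicate 1, 9 without siRNA1 replicate 3, 28 without siRNA2 replicate 2 and 91 without control replicate 3. The count for siRNA2 was 2 without siRNA2 replicate 1, 3 without control replicate 1 or control replicate 2, 31, 29 and 29 without siRNA1 replicates 1, 2 and 3, 48 without siRNA2 replicate 2 (18 higher and 30 lower, so that the balance turned), 30 without siRNA2 replicate 3 and 134 without control replicate 3.

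Of the 133 called members, 123 also had the same sign under each siRNA, moved the same way in 6 of 6 siRNA arrays and were above background on every array of the brighter side, 90 of them higher and 33 lower. The 12 that rose most among the 90 had log2 fold changes of 0.74 to 0.94 and mean intensities of 66.4 to 1707. Their fold changes were 0.61 to 0.99 under siRNA1 and 0.77 to 1.04 under siRNA2, and 12 of 12 were above background on all 9 arrays. For 5 of the 12 the siRNA and control arrays did not overlap. The 12 that fell most among the 33 had log2 fold changes of -0.79 to -0.65, with -0.86 to -0.52 under siRNA1 and -0.88 to -0.64 under siRNA2. For 7 of these 12 the siRNA and control arrays did not overlap. Their mean intensities were 41.6 to 66097, and 5 of the 12 reached 10000. None of these 24 members passed the threshold without the replicate block, where their adjusted p (limma) was 0.310 to 0.727. With slide as a block 1 of the 24 kept its call.

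The member that rose most among those that met these criteria was CUST_16762_PI427704219, designed for ENST00000442226. Its normalized log2 values were 9.79, 10.47 and 9.83 on the control arrays 1 to 3. They were 10.79, 11.12 and 10.85 with siRNA1 and 10.90, 11.24 and 10.90 with siRNA2. All 6 siRNA arrays lay above all 3 control arrays, and replicate 2 was the highest sample in each group. The group means were 10.03 ± 0.38, 10.92 ± 0.17 and 11.02 ± 0.20 (SD, n = 3 each), and the log2 fold change was 0.94 ± 0.09 (SE; limma with the replicate block, adjusted p = 0.00353). It was 0.89 under siRNA1 (limma, adjusted p = 0.0111) and 0.98 under siRNA2 (limma, adjusted p = 0.00728). The difference was 0.88 on the first slide and 1.05 on the second. The call held without each of the 9 arrays in turn and under 20 of 23 other settings in all. It was lost without the replicate block (limma, adjusted p = 0.339), with slide as a block (0.0736) and without all arrays of replicate 2 (0.0627).

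Next came CUST_17067_PI427704219, designed for ENST00000527543. Its values were 7.45, 7.68 and 7.45 with control siRNA, 8.56, 9.11 and 7.87 with siRNA1, and 8.74, 8.74 and 7.73 with siRNA2. The siRNA arrays lay above the control arrays without overlap, but those of replicate 3 were only just above, and the spread with the siRNAs (SD 0.62 and 0.58) was larger than with control siRNA (SD 0.13). The log2 fold change was 0.94 ± 0.16 (SE; limma with the replicate block, adjusted p = 0.0239), with 1.23 on the first slide and 0.36 on the second. The call held under 12 of 23 other settings. Among the settings that lost it were those without control replicate 1 (limma, adjusted p = 0.163), control replicate 2 (0.122), siRNA1 replicate 2 (0.0600) or siRNA2 replicate 1 (0.0567). Slide as a block (limma, adjusted p = 0.0908) and no block (0.644) were also among them.

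Among the fallers that met these criteria, the largest change was that of CUST_16679_PI427704219, which lists ENST00000440412 and ENST00000452468, so that its signal cannot be assigned to one of these transcripts. It had values of 10.87, 10.43 and 10.60 with control siRNA, 10.05, 9.60 and 9.997 with siRNA1, and 9.89, 9.48 and 10.003 with siRNA2. Every siRNA array lay below every control array, and both siRNAs gave nearly the same level. The log2 fold change was -0.79 ± 0.09 (SE; limma with the replicate block, adjusted p = 0.00652), with -0.75 under siRNA1 (limma, adjusted p = 0.0206) and -0.84 under siRNA2 (limma, adjusted p = 0.0108). It was -0.89 on the first slide and -0.60 on the second. The call held under 17 of 23 other settings. Among the settings that lost it were those without control replicate 1 (limma, adjusted p = 0.0535), control replicate 2 (0.0596) or the replicate block (0.356).

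A bright member came next, CUST_6561_PI427704219, designed for ENST00000411861, with intensities of 30490 to 87588 and no saturated spot. Its values were 16.35, 15.77 and 16.31 with control siRNA, 15.56, 15.24 and 15.04 with siRNA1, and 15.60, 15.41 and 15.24 with siRNA2. The groups did not overlap here either, with the siRNA arrays lower, although control replicate 2 was much closer to them than the other controls. The log2 fold change was -0.79 ± 0.12 (SE; limma with the replicate block, adjusted p = 0.0177), with -0.60 on the first slide and -1.16 on the second. The call held under 16 of 23 other settings. Among the settings that lost it were those without control replicate 1 (limma, adjusted p = 0.113) and without the block (0.430).

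Bright members that were called all fell. The 11 called members with a mean intensity of at least 10000 had log2 fold changes of -0.79 to -0.48 and intensities of 35011 to 69064, among 83 members of that brightness. Over all tested probes of any brightness the background was 2.74% called and 0.881% called lower. Of 1848 other probes of that brightness 28 were called (1.52%), 8 higher and 20 lower. The mean normalized log2 value of the 11 called members was 16.41, 15.89 and 15.99 on the control arrays 1 to 3. It was 15.79, 15.42 and 15.16 with siRNA1, and 15.73, 15.51 and 15.31 with siRNA2. Within each replicate number both siRNA arrays were below the control. Across the arrays the deviations of the 11 correlated between probes at 0.49 to 0.997, with a median of 0.87 over 55 pairs. The median was 0.47 among the 72 bright members that were not called. The 11 probes therefore do not count as 11 independent results. The remaining 72 bright members averaged 14.42 to 14.73 with control siRNA, 14.40 to 14.71 with siRNA1 and 14.54 to 14.79 with siRNA2, where the groups overlapped. The 83 together had a median log2 fold change of 0.068, with 48 positive and 35 negative. The bright members called lower and the rest were told apart by these same values, so that this contrast is a description.

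The siRNAs differed from each other at 2 of 4119 members (0.0486%; background 0.0387%). CUST_16362_PI427704219, designed for ENST00000490647, was above background on the 3 siRNA1 arrays only. Its values were 4.51, 4.34 and 4.24 with control siRNA, 6.23, 5.68 and 5.001 with siRNA1, and 4.45, 3.99 and 4.03 with siRNA2. The siRNA1 arrays stood above all others, and control and siRNA2 arrays were not well above background, so that only a bound can be given. On average over the 3 arrays of a group, the signal was at least 2.39-fold higher with siRNA1 than with siRNA2. Against control siRNA it was at least 2.28-fold higher on average. Replicate 3 alone (5.001 with siRNA1, 4.03 with siRNA2 and 4.24 with control siRNA) fell short of both averages. The bound sets each dim array at the lowest signal of a probe well above background there, or at the probe's own signal where that was higher. The difference of the measured values passed the threshold (limma with the replicate block, adjusted p = 0.0191 against siRNA2), but this member passed the detection filter only through the siRNA1 arrays, where it was high, so the test is no independent support for the difference.

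The other was CUST_7394_PI427704219, designed for ENST00000436303 and detected on all 9 arrays. Its values were 6.65, 6.46 and 6.75 with control siRNA, 6.54, 6.52 and 6.93 with siRNA1, and 8.56, 8.39 and 7.92 with siRNA2. The siRNA2 arrays stood above all others, while control and siRNA1 arrays overlapped. The log2 difference of siRNA2 from siRNA1 was 1.63 ± 0.18 (SE; limma with the replicate block, adjusted p = 0.0186), that of siRNA2 from control 1.67 (limma, adjusted p = 0.00627) and that of siRNA1 from control 0.04 (limma, adjusted p = 0.916). It is the 1 member called for siRNA2 against control without the replicate block (limma, adjusted p = 0.0286). It was also called for both siRNAs against control (log2 fold change 0.86, limma with the replicate block, adjusted p = 0.0247), although siRNA1 hardly changed it. Of these 2 members, both lost the call between the siRNAs without control replicate 2, siRNA1 replicate 1 or 2, or siRNA2 replicate 1 or 2, and 5 members were called without control replicate 3 or without siRNA1 replicate 3. No member was called between the siRNAs without the replicate block (limma; background 0%), where 106 had an unadjusted p under 0.05 (2.57%; background 2.51%).

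For 339 of the transcripts a catalogue probe was also on the array, which gives a second oligo for the same target and the same RNA. Over the 349 pairs both oligos were members of their tested sets in 123, only the custom oligo in 18, only the catalogue oligo in 47 and neither in 161. In the 123 pairs the log2 fold changes of both siRNAs against control had the same sign in 81 (65.9%), with a Pearson correlation of 0.44 and a Spearman correlation of 0.52 across pairs and a median absolute difference of 0.11. The oligos of a pair share their arrays and any effect of an array, so this is a description without a test. Of the 120 members in these pairs 6 were called, all higher (background 2.74% called and 1.85% higher), and they met 7 catalogue probes, each of which had a positive fold change.

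In 3 of those pairs the catalogue probe was called as well, and in 1 further pair the catalogue probe alone was called (log2 fold change 0.42, against 0.35 for the custom oligo). In the pair with the smallest adjusted p the custom oligo had normalized log2 values of 5.20, 5.26 and 4.31 with control siRNA, 5.98, 5.83 and 4.96 with siRNA1, and 6.06, 5.96 and 4.97 with siRNA2. Its catalogue partner had 5.20, 5.04 and 4.76, then 6.19, 5.999 and 5.001, and then 6.18, 5.94 and 4.995. Both oligos were higher in 6 of 6 siRNA arrays than in the control of the same number, with replicate 3 the lowest in each group. The log2 fold change was 0.71 ± 0.08 for the custom oligo (SE; limma with the replicate block, adjusted p = 0.00661) and 0.72 ± 0.13 for the catalogue oligo (limma, adjusted p = 0.0294). In the other two, the custom and catalogue oligos had 0.64 and 0.74, and 0.52 and 0.47.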

How the data were processed

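RNA of 9 ALL-SIL samples was measured on one-colour Agilent arrays. The authors deposited the intensity of every spot and its flags from Agilent Feature Extraction (10.5.1.1 in the file headers, 9.1 in the submitters' processing notes). Their array design was annotated on hg19. The authors also deposited log2 values that they normalized with VSN, used here as an alternative.

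The model of VSN was fitted by code written here to the median intensity, without background subtraction (7 iterations, quantile 0.9), since the vsn package was not installed. Spots marked as outliers were left out. The 33595 probes well above background on at least 3 of 9 arrays were tested in R 4.3.3 with limma 3.58.1. The replicate number was a block, with Benjamini-Hochberg adjustment and a threshold of 0.05. The numbers come from the labels, and samples with the same number deviated together: every one of 9 pairs correlated at 0.31 to 0.75 over all tested probes. Samples with the same number also shared a slide and a row, so that these correlations cannot tell a shared replicate from a shared position. The fitting code was tested on simulated data.

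Groups were taken from the sample titles. Named probes are the 12 largest changes each way that passed the criteria given with them, and every member called between the siRNAs. Identifiers are printed for 2 each way because no names were matched, and the gene lists planned for these members could not be applied for the same reason. The bright members, the on and off probe, and the pairs of oligos were chosen after their values were seen. The members and lists were chosen with earlier results of these data known.

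The alternatives were VSN on background-subtracted intensity or on the processed signal, the 75th percentile, normexp with an offset of 50, the deposited table, other filters, outlier spots kept, no replicate block, slide as a block, an intensity trend, only the arrays compared, and leaving out arrays. Precision is limited by how few arrays there are and by how far a probe is above background, and no depth applies to arrays.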

Additional observations from a re-analysis of the deposited data

Results flagged for a closer look

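For 2 members the effects of the siRNAs differed from each other by the test of the difference itself. CUST_16362_PI427704219 had a log2 difference of siRNA2 minus siRNA1 of -1.48 on the normalized scale (limma with the replicate block, adjusted p = 0.0191), but its siRNA2 arrays were not well above background, so that this is a difference of measured values with only a bound behind it, and it passed the detection filter only through the siRNA1 arrays. The test is therefore no independent support. CUST_7394_PI427704219 had a log2 difference of 1.63 (limma with the replicate block, adjusted p = 0.0186), with 2.02, 1.87 and 0.99 by replicate number. Replicate 3, the replicate on the second slide, gave the smallest difference, and its part in the result was not tested. Over all alternatives the adjusted p of these differences (limma) was 0.00305 to 0.508 for the first and 0.00251 to 0.324 for the second.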

How the results depend on the processing

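The log2 fold change of *PHF6* stayed past the threshold under 23 of 23 alternatives. The number of members detected was 2865 to 5319 under other detection rules, 4117 when outlier spots were left out and 4451 with at least 2 of 9 arrays, both chosen after seeing the data. Counts of called members moved. For both siRNAs, siRNA1, siRNA2 and the difference between the siRNAs, in this order, no replicate block gave 0, 0, 1 and 0 and slide as a block 3, 0, 1 and 1. VSN on the processed signal gave 33, 2, 12 and 0, the 75th percentile 39, 4, 6 and 0, no filter 9, 1, 4 and 0, a filter on all 9 arrays 224, 73, 151 and 1, and an intensity trend with a robust prior 242, 97, 173 and 7. Background-subtracted VSN gave 26 with siRNA1, 46 with siRNA2 and 1 for their difference. The deposited values gave 28 with siRNA1 and 1 for the difference, and normexp gave 122 with siRNA2 and 1 for the difference. Only the arrays compared gave 16, 15 and 0 for siRNA1, siRNA2 and the difference. Leaving out 1 array or 1 replicate number gave 0 to 178, 0 to 91, 0 to 134 and 0 to 6 in the same order. The fits with the replicate numbers as a block thus carried these calls, and the cause was not tested. With both siRNAs, 14 of 33 calls were lower with VSN on the processed signal. For siRNA1 background-subtracted VSN called 14 higher and 12 lower, and the 2 and 4 calls with the processed signal were all higher. For siRNA2 the 75th percentile called 5 of 6 higher. The median log2 fold change of the members was -0.0013 with normexp and 0.026 to 0.060 when arrays or replicate numbers were left out. With no filter it was 0.016 over the designed probes. No named member changed sign under the alternatives that gave it a value. Members near background are limited by signal, so that a change there may not be detectable.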
